A study of Mus musculus with 23 samples.

Results

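S100g and Ctps2, a pair of genes at the same place on the mouse X chromosome, were examined in colon together with genes of calcium uptake and vitamin D response and with the CTP synthase paralogue of Ctps2. The 7 genes were S100g, Trpv6, Atp2b1, Vdr, Cyp24a1, Ctps2 and Ctps, out of 18194 genes that the array named. S100g and Ctps2 were chosen by their measured values in these samples, which set colon of untreated wild-type mice apart from all others, so their levels are a description and carry no test. The other 5 were named as genes that might follow them, and their differences were tested within the fit over all genes.

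Total RNA of whole colon was hybridised to 1 Affymetrix array per sample. The samples were 7 from Fn14 knockout (KO) mice with trinitrobenzene sulfonic acid (TNBS), 6 from wild-type (WT) mice with TNBS, 5 from KO mice without TNBS and 5 from WT mice without TNBS, all on the BALB/c strain. Tnfrsf12a encodes Fn14, through which the cytokine TWEAK signals. TNBS binds proteins of the gut wall as a hapten and brings on colitis when instilled with ethanol. The mice received a 0.2% solution for 6 weeks, in volumes of 1.0 to 2.0 ul per g of weight, and colons were collected 3 days later. The age and sex of the mice, how the knockout was made, the BALB/c substrain of each genotype and whether untreated mice received ethanol are not given in the sources used here. Neither do the labels say that each numbered sample came from its own mouse, so the spread behind each p-value may be technical. A TNBS effect below therefore covers the injections and their solvent. Tnfrsf12a itself lay between 3.84 and 4.17 on the log2 scale in KO colon with TNBS and between 6.77 and 8.25 in WT colon with TNBS. Without TNBS it lay between 4.03 and 4.17 in KO colon and between 5.86 and 7.16 in WT colon. In posterior Hox genes, which mark the distal gut, untreated WT replicate 3 stood apart, with a mean of 5.56 over 6 genes against 6.85 to 7.40 on all others. Other arrays stood apart in the mean of 16 small intestine markers. Untreated WT replicate 5 read 7.97 there, against 5.25 to 6.46 in the rest of its group. Untreated KO replicate 5 read 5.41, against 7.30 to 7.91 in the rest of its group. Results that rest on untreated WT were refitted without WT replicate 3, and the values without it are given beside the main results.

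S100g encodes calbindin-D9k, a small cytosolic protein of the S100 family that binds calcium and carries it across the absorptive cell of the intestine. In the classical route of calcium uptake, calcium enters the cell from the lumen through the channel Trpv6, is shuttled by S100g and is pumped out at the basolateral side by the plasma membrane ATPase Atp2b1. The vitamin D receptor Vdr, a nuclear receptor that binds DNA as a partner of the retinoid X receptors, raises transcription of S100g, Trpv6 and Cyp24a1, and Cyp24a1 degrades the active hormone. Ctps2 and Ctps are both CTP synthases, which make the nucleotide CTP from UTP for RNA, DNA and phospholipid synthesis. No role of Ctps2 in calcium uptake is part of this textbook route.

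The promoters of S100g, Ctps2 and Trpv6 are shown because Vdr binds pairs of short half-sites, and because S100g and Ctps2 lie on opposite strands of the same region. Each window runs from 250 bases before to 50 bases after an annotated start, on the strand of the gene, from RefSeq on build GRCm38.p6. Capitals mark the half-site letters AGGTCA, the variant GGTTCA and the variant AGTTCA on either strand, and the letters TATAAA on the strand of the gene. The S100g window, chrX:162964550-162964849 on the minus strand, held 3 half-sites and the TATAAA letters. The Ctps2 window shown, chrX:162901310-162901609 on the plus strand, belongs to 1 of 3 annotated starts and held 1 half-site; the windows of the other starts held 1 and 0. The Trpv6 window, chr6:41636356-41636655 on the minus strand, held 2 half-sites.
S100g: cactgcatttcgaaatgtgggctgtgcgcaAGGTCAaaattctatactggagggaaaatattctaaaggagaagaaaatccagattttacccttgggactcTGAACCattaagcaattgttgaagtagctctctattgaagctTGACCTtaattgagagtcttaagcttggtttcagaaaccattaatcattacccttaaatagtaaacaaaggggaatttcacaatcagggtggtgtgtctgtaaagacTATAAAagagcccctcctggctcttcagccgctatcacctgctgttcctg
Ctps2: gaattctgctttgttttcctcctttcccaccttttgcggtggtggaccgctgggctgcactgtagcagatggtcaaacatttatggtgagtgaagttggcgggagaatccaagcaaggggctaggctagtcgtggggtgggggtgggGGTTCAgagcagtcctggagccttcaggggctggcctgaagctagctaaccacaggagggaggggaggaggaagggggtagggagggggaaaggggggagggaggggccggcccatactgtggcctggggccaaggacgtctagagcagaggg
Trpv6: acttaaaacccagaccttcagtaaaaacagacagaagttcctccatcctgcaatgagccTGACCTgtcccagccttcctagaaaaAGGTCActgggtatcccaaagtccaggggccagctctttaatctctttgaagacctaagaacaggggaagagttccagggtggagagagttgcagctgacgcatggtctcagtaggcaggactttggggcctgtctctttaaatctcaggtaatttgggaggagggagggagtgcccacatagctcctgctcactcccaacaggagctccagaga

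Half-sites of this kind are common. At least 1 stood in 35.0% of the 32851 promoters of the same length, at least 2 in 8.30% and at least 3 in 1.57%, and TATAAA stood in 8.32%. The 3 S100g half-sites began at bases 31, 102 and 144 of its window, and those of Trpv6 at bases 60 and 86. No promoter of the genes examined held a pair of these half-sites as a direct repeat with a gap of 3 bases, an arrangement that 8 of the 32851 promoters held (0.0244%). Vdr had 1 half-site in its window, and Atp2b1 and Ctps had 0 in theirs. The table held promoters of 6 of the 7 genes, all but Cyp24a1. A match of letters is no binding site, and the array measured no binding.

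S100g was low in untreated WT colon and high in the colon of the other 3 groups. With TNBS, the 7 KO arrays spanned 11.95 to 12.69, with a median of 12.18, and the 6 WT arrays spanned 11.19 to 12.14, with a median of 11.81, in log2 expression. Without TNBS, the 5 KO arrays read 12.63, 12.52, 12.42, 12.63 and 12.19, against 7.14, 8.68, 9.48, 7.87 and 7.80 on the 5 WT arrays. All 18 arrays of the other 3 groups lay above all 5 untreated WT arrays, with a gap of 1.71 between the nearest of them. The arrays of a group differed among themselves by an SD of 0.25 in KO with TNBS, 0.35 in WT with TNBS, 0.18 in untreated KO and 0.90 in untreated WT. As group means, S100g stood at 12.48 ± 0.18 in untreated KO and 8.19 ± 0.90 in untreated WT (SD, n = 5 each), a difference of 4.29 log2 units or 19.5-fold. With TNBS the means were 12.23 ± 0.25 in KO (SD, n = 7) and 11.77 ± 0.35 in WT (SD, n = 6), a difference of 0.46 or 1.37-fold. The TNBS mean minus the untreated mean was -0.25 in KO and 3.58, or 11.9-fold, in WT. Without WT replicate 3, which had the highest S100g of its group, the untreated KO minus WT difference was 4.61 and the TNBS difference in WT was 3.90. In bulk tissue, fewer cells of a type and less RNA per cell cannot be told apart.

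Ctps2 drew the same picture with less spread. Its brightest probe set spanned 9.14 to 9.35 in KO with TNBS, with a median of 9.23, and 9.11 to 9.42 in WT with TNBS, with a median of 9.30. The untreated KO arrays read 9.31, 9.39, 9.18, 9.02 and 9.25, against 5.87, 5.87, 5.97, 6.09 and 6.26 in untreated WT. The 3 higher groups lay on top of each other, and the nearest of their arrays was 2.76 above the highest untreated WT array. Group means were 9.23 ± 0.08 (SD, n = 7) in KO with TNBS, 9.29 ± 0.12 (SD, n = 6) in WT with TNBS, 9.23 ± 0.14 in untreated KO and 6.01 ± 0.16 in untreated WT (SD, n = 5 each). Untreated KO minus untreated WT was 3.22, and TNBS minus untreated was -0.002 in KO and 3.27, or 9.67-fold, in WT. Without WT replicate 3, untreated KO minus WT was 3.21 and the TNBS difference in WT was 3.26.

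**Figure D1:**
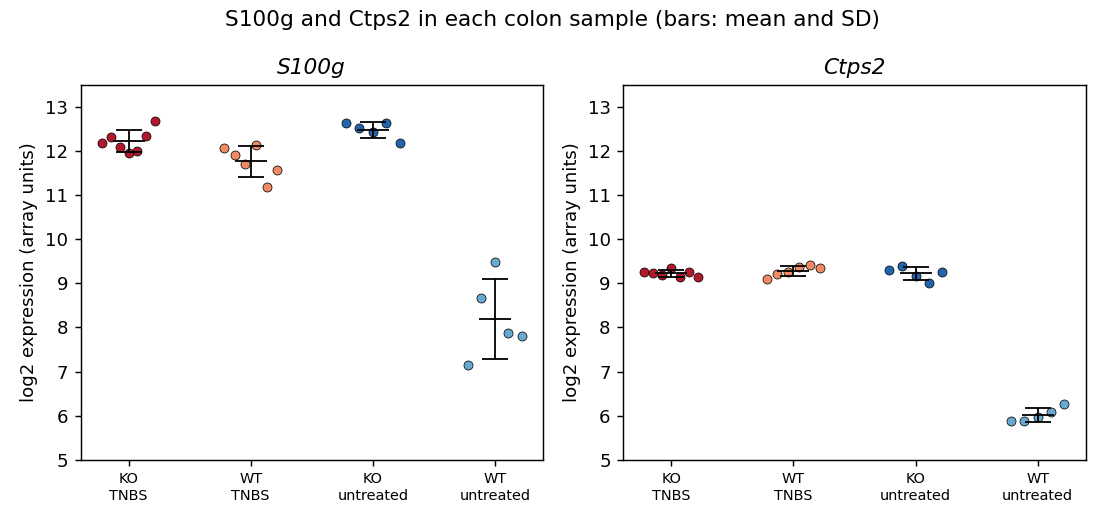
Log2 expression of S100g and of the brightest Ctps2 probe set (vertical axes, array units) in each colon sample of the 4 groups (horizontal axes); points are samples, and bars give the mean and SD. The 5 untreated WT samples lie below all 18 others in both plots, between 7.14 and 9.48 for S100g and between 5.87 and 6.26 for Ctps2.

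Within untreated WT colon the genes did not share an order. S100g was highest in replicate 3, at 9.48, and Ctps2 in replicate 5, at 6.26, where S100g stood at 7.80. Across all 23 arrays the Pearson correlation of S100g with Ctps2 was 0.94, and over the 18 arrays without untreated WT it was -0.44. The arrays of a group share their treatment, so these values describe the step between groups and no more.

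The remaining Ctps2 probe sets were dim. One spanned 2.40 to 2.84 in KO with TNBS, 2.62 to 2.93 in WT with TNBS, 2.65 to 2.99 in untreated KO and 2.17 to 2.21 in untreated WT, where 2.17 is the floor of the deposited values. It therefore also had untreated WT below every other array, at a small height. The third spanned 2.24 to 2.43, 2.19 to 2.67, 2.25 to 3.10 and 2.17 to 2.24 in the same order of groups, so that the highest untreated WT array reached the lowest arrays of both TNBS groups. Fold changes of probe sets this close to the floor are understated.

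A search over all 18194 genes set this pattern in context, and it was made after the values had been seen. Untreated WT lay wholly outside the other 18 arrays at 62 genes, or 0.341% of all. This count was 142 genes without WT replicate 3. In both searches only Ctps2 and S100g, in that order, did so by a gap of more than 1 log2 unit. The next gap was 0.75, at G530011O06Rik, an X-linked long non-coding RNA. It averaged 5.45 ± 0.64 (SD, n = 7) in KO with TNBS, 5.21 ± 0.80 (SD, n = 6) in WT with TNBS, 5.29 ± 0.27 in untreated KO and 2.51 ± 0.55 in untreated WT (SD, n = 5 each). Of the 62 genes, 7 were on the X chromosome. Leaving out S100g and Ctps2, which were chosen by this pattern, 5 of 60 were (8.33%), against 615 of the other 18192 genes (3.38%), and without WT replicate 3 it was 8 of 140 (5.71%). The 7 were Ctps2, S100g, G530011O06Rik, Fam199x, Huwe1, Acot9 and Pdzd11. Outside the first 3, their group means differed little: the mean of the other arrays minus that of untreated WT lay between -0.51 for Fam199x and 0.46 for Acot9. The same count was 16 genes for KO with TNBS, 321 for WT with TNBS and 141 for untreated KO, of which 0, 2 and 6 had a gap over 1.

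S100g lies inside the span of Ctps2 on the opposite strand. Within 1 Mb of this pair the annotation held 32 genes, 12 of them protein coding, and 9 besides S100g and Ctps2 had a probe set. Of these 9, 0 were called between untreated KO and untreated WT, where limma called 2.92% of all genes higher and 1.91% lower at an adjusted p under 0.05, and 1 of the 9, Rbbp7, had an unadjusted p under 0.05. Their differences there ran from 0.00 to 0.30, the largest at Reps2, an endocytosis adaptor, at 8.52 in KO and 8.22 in WT. Gm15201 and Rnf138rt1 stood at or near the floor in all groups.

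**Figure D2:**
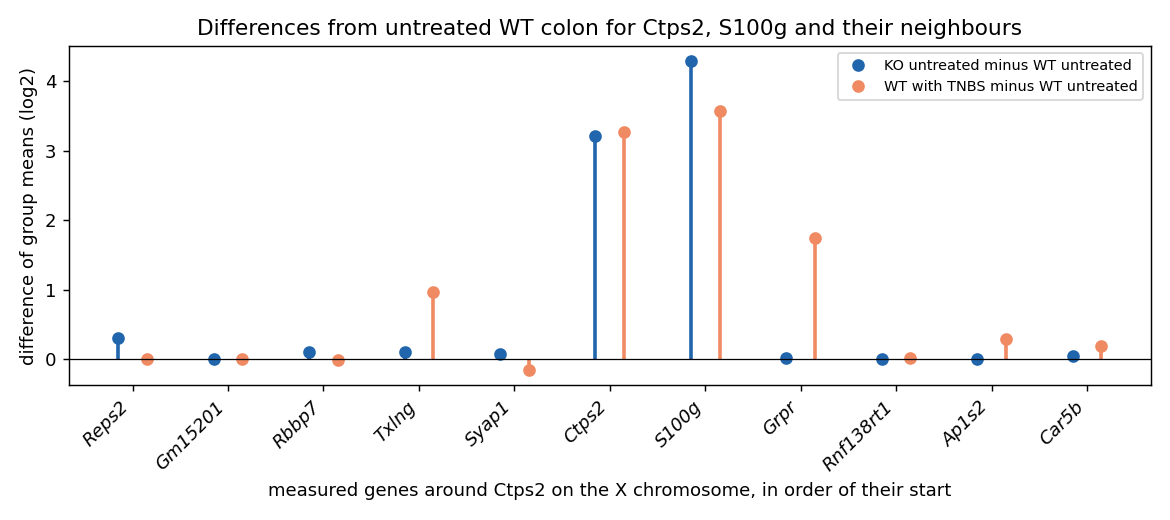
Differences of group means in log2 units (vertical axis) for Ctps2, S100g and the 9 measured genes around them in the order of their starts (horizontal axis); blue points give untreated KO minus untreated WT, orange points WT with TNBS minus untreated WT. Blue points of the neighbours lie between 0.00 and 0.30, against 3.22 for Ctps2 and 4.29 for S100g, while Txlng and Grpr have orange points of 0.97 and 1.74.

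With TNBS, 1 of the 9 neighbours (Grpr) rose in KO and 2 (Txlng and Grpr) in WT, and 0 fell, where 4.08% of all genes rose and 4.47% fell in KO and 10.2% rose and 6.27% fell in WT. Txlng, which encodes a taxilin, read 7.18 to 7.66 in KO with TNBS, with a median of 7.32, and 8.13 to 8.59 in WT with TNBS, with a median of 8.44. Without TNBS it lay between 7.28 and 7.74 in KO and between 7.31 and 7.59 in WT. WT with TNBS thus stood above all other arrays at this gene, whereas at S100g and Ctps2 untreated WT stood below all others. The TNBS effect at Txlng was -0.19 in KO (limma adjusted p = 0.220), and in WT the gene rose by 0.97 (SE 0.09, adjusted p = 8.3e-07). The difference of these TNBS effects, KO minus WT, was -1.16 (SE 0.13, adjusted p = 0.000124). Grpr, the receptor for gastrin-releasing peptide, rose with TNBS by 1.13 in KO (adjusted p = 4.5e-05) and by 1.74 in WT (adjusted p = 8.5e-08), and with TNBS it was lower in KO than in WT by 0.60 (adjusted p = 0.0053). Txlng and Grpr were the only 2 of 9 called lower in KO with TNBS, where 6.72% of all genes were. The calls of both against untreated WT held without WT replicate 3.

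At each of the 5 genes named as possible followers, Trpv6, Atp2b1, Vdr, Cyp24a1 and Ctps, the untreated WT arrays overlapped the other 18. At Cyp24a1 this was a tie at the floor, where a lower untreated WT could not have been seen. Of the 5, limma called 1 higher and 0 lower in untreated KO against untreated WT, where 2.92% of all genes were called higher and 1.91% lower. For TNBS in KO it called 0 higher and 1 lower, against 4.08% of all genes higher and 4.47% lower. For TNBS in WT it called 0 higher and 1 lower, against 10.2% and 6.27%. Between KO and WT with TNBS it called 0, against 3.73% of all genes higher and 6.72% lower, and 3 of the 5 (Trpv6, Vdr and Ctps) had an unadjusted p under 0.05. For the difference of the TNBS effects it called 0, against 0.621% higher and 1.37% lower, and 0 had an unadjusted p under 0.05. Comparisons against untreated WT share those 5 arrays and are not independent of each other.

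Trpv6, the apical entry channel, varied from array to array. In KO with TNBS it spanned 4.64 to 7.43, with a median of 5.76, and in WT with TNBS 3.59 to 5.31, with a median of 4.63. Untreated KO arrays read 5.34, 4.90, 5.72, 4.11 and 4.98, against 5.25, 5.46, 3.64, 5.78 and 6.03 in untreated WT. The genotypes overlapped with and without TNBS. The untreated WT array with the lowest Trpv6, replicate 3 at 3.64, was the one with the highest S100g, 9.48. KO minus WT was 1.10 with TNBS (SE 0.45, adjusted p = 0.137) and -0.22 without (SE 0.51, adjusted p = 1). The TNBS effect was 0.59 in KO (SE 0.47, adjusted p = 0.553) and -0.74 in WT (SE 0.49, adjusted p = 0.370), and the difference of TNBS effects was 1.33 (SE 0.68, adjusted p = 0.364). None of these passed. Without WT replicate 3 the TNBS difference in WT was -1.13 (adjusted p = 0.116) and the untreated difference between genotypes was -0.62 (adjusted p = 0.570).

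Atp2b1, the basolateral pump, fell with TNBS in both genotypes. Its brightest probe set spanned 11.22 to 11.73 in KO with TNBS (median 11.65) and 11.23 to 11.54 in WT with TNBS (median 11.34). The untreated arrays read 11.89, 11.80, 11.89, 12.16 and 11.79 in KO, against 11.68, 11.67, 11.78, 11.81 and 11.64 in WT. The TNBS arrays lay below the untreated arrays of the same genotype without overlap, and the share of all genes that did so was not counted. Atp2b1 fell by 0.37 in KO (SE 0.10, adjusted p = 0.0204) and by 0.35 in WT (SE 0.10, adjusted p = 0.0204). The difference of TNBS effects was -0.02 (SE 0.14, adjusted p = 1), and it turned positive under several alternatives. KO minus WT was 0.17 with TNBS (SE 0.09, adjusted p = 0.293) and 0.19 without (SE 0.10, adjusted p = 0.350).

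The fall of Atp2b1 is the opposite of the TNBS difference of S100g in WT. Both calls of Atp2b1 were lost when the mean of small intestine, squamous or colon epithelium markers was added to the fit. With the skeletal muscle mean they were kept, at -0.37 in KO (adjusted p = 0.0228) and -0.36 in WT (adjusted p = 0.0247). The posterior Hox mean also kept them, at -0.37 in KO (adjusted p = 0.0179) and -0.33 in WT (adjusted p = 0.0250). With the small intestine mean the difference was -0.31 in KO (adjusted p = 0.276) and -0.32 in WT (adjusted p = 0.0712), and with the squamous mean -0.28 in KO (adjusted p = 0.192) and -0.26 in WT (adjusted p = 0.199). With the colon epithelium mean it was smaller, -0.17 in KO (adjusted p = 0.566) and -0.18 in WT (adjusted p = 0.343). The KO call was also lost without KO replicate 4 (-0.31, adjusted p = 0.0688) or with the compared groups fitted alone (-0.37, adjusted p = 0.101), and the WT call without WT replicate 4 (-0.32, adjusted p = 0.0528) but not without WT replicate 3 (-0.33, adjusted p = 0.0446).

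All 3 probe sets of Atp2b1 were also tested in a fit over 45101 probe sets. For TNBS in KO, 2 of 3 were called lower, at -0.37 and -0.36 (adjusted p = 0.0281 and 0.0089), where 3.01% of probe sets were called lower. The other, the dimmest, gave -0.38 (adjusted p = 0.0815). For TNBS in WT, all 3 were called lower, at -0.42, -0.35 and -0.30 (adjusted p = 0.0403, 0.0279 and 0.0188), where 5.28% were. Between the genotypes all 3 probe sets were higher in KO with and without TNBS, but they differed in size and in which passed. The dimmest was higher in KO than in WT with TNBS by 0.55 (adjusted p = 0.0062) and without TNBS by 0.51 (adjusted p = 0.0410). The middle one was higher in KO by 0.24 with TNBS (adjusted p = 0.0472) and differed by 0.30 without (adjusted p = 0.0506). The brightest differed by 0.17 with TNBS and by 0.19 without, and passed in neither comparison (adjusted p = 0.326 and 0.403). Probe sets were called higher in KO at 4.35% with TNBS and at 1.97% without.

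Vdr, the vitamin D receptor, was higher in untreated KO than in untreated WT. Its brightest probe set read 12.72, 12.64, 12.71, 12.84 and 12.60 in untreated KO, against 12.31, 12.31, 12.41, 12.48 and 12.16 in untreated WT. With TNBS it spanned 12.24 to 12.73 in KO (median 12.49) and 12.15 to 12.42 in WT (median 12.22). The genotypes did not overlap without TNBS and did with it, and the share of all genes without such overlap was not counted. The untreated difference was 0.37 (SE 0.08, adjusted p = 0.0117), small beside the 4.29 of S100g in the same samples. With TNBS, KO minus WT was 0.21 (SE 0.07, adjusted p = 0.0601). TNBS minus untreated was -0.22 in KO (SE 0.07, adjusted p = 0.0653) and -0.07 in WT (SE 0.08, adjusted p = 0.673), and the difference of these effects was -0.16 (SE 0.11, adjusted p = 0.543).

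The dimmer Vdr probe set spanned 10.50 to 11.03 in untreated KO and 9.77 to 10.35 in untreated WT, a difference of 0.61 (adjusted p = 0.0084 over all probe sets). With TNBS its difference was 0.36 (adjusted p = 0.0381). For TNBS it gave -0.29 in KO (adjusted p = 0.145) and -0.05 in WT (adjusted p = 1). In WT the TNBS differences of Vdr were thus -0.07 and -0.05 on its probe sets, beside 3.58 for S100g in the same samples. The untreated Vdr call was lost when the mean of the skeletal muscle markers was added to the fit, a covariate chosen after seeing the data (difference 0.41, adjusted p = 0.110). It was kept at 0.27 with the colon epithelium mean (adjusted p = 0.0389) and at 0.39 without WT replicate 3 (adjusted p = 0.0164).

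Cyp24a1, which degrades the active hormone and is among the strongest Vdr targets known, was at the floor. Its brighter probe set stood at 2.17 on all 7 KO and 6 WT arrays with TNBS, on all 5 untreated KO arrays and on 4 of 5 untreated WT arrays, with 2.20 on the other. The dimmer one stood within 0.005 of the floor on all arrays. An array value at the floor does not show that the message was absent, and no fold is given.

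Ctps, the paralogue of Ctps2, did not share its step. Its single probe set spanned 9.79 to 10.27 in KO with TNBS (median 10.02) and 10.09 to 10.47 in WT with TNBS (median 10.28). The untreated arrays read 10.33, 9.98, 9.72, 9.54 and 10.08 in KO, against 10.10, 9.97, 10.04, 9.80 and 10.22 in WT. Every pair of groups overlapped. Untreated KO minus WT was -0.10 (SE 0.13, adjusted p = 0.832), and TNBS minus untreated was 0.09 in KO (SE 0.12, adjusted p = 0.782) and 0.26 in WT (SE 0.12, adjusted p = 0.157). KO minus WT with TNBS was -0.27 (SE 0.11, adjusted p = 0.137), and the difference of TNBS effects was -0.17 (SE 0.17, adjusted p = 0.714). Ctps averaged 9.93 ± 0.31 in untreated KO and 10.03 ± 0.15 in untreated WT (SD, n = 5 each), where Ctps2 was lowest. Ctps without WT replicate 3 gave -0.09 for untreated KO minus WT (adjusted p = 0.895) and 0.27 for TNBS in WT (adjusted p = 0.203).

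**Figure D3:**
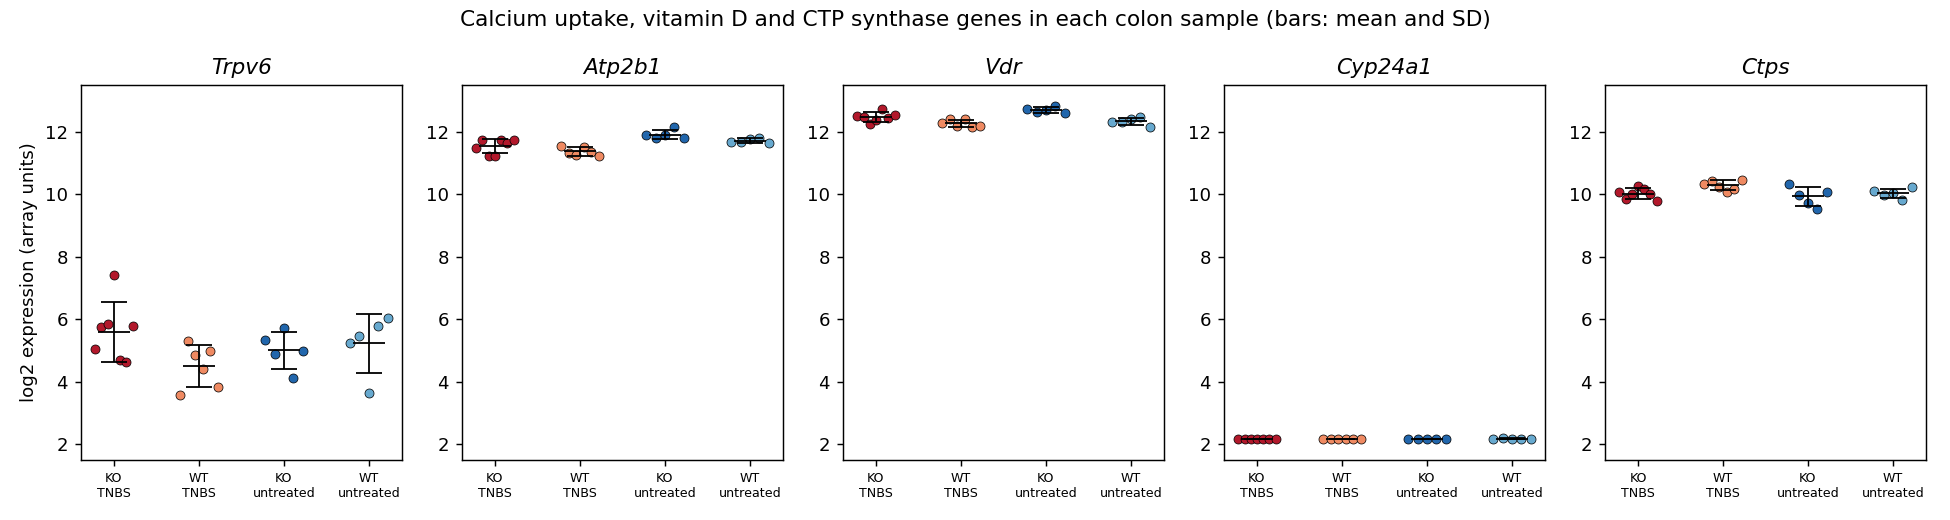
Log2 expression of Trpv6, Atp2b1, Vdr, Cyp24a1 and Ctps (vertical axes, brightest probe set, array units) in each colon sample of the 4 groups (horizontal axes); points are samples, and bars give the mean and SD. No plot shows the low untreated WT group of S100g and Ctps2: Trpv6 scatters between 3.59 and 7.43 and Cyp24a1 lies at the floor of 2.17.

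**Figure D4:**
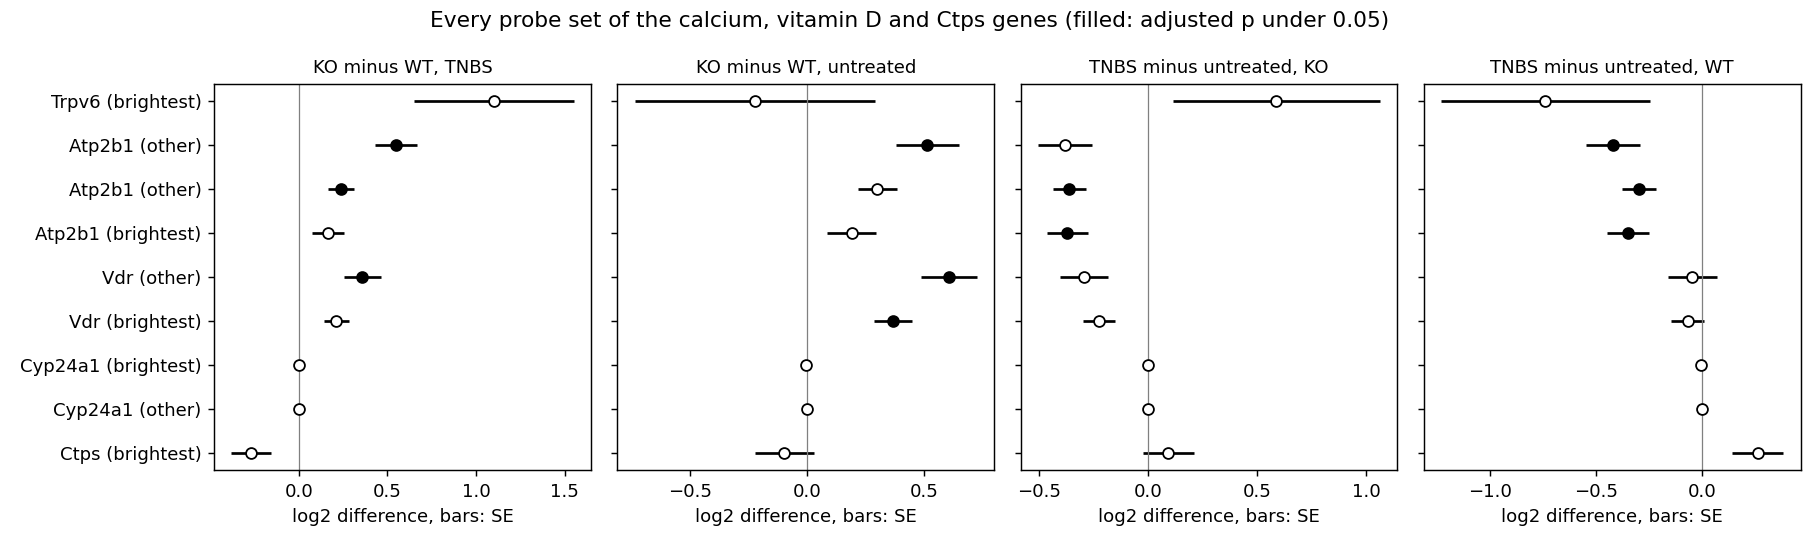
Log2 differences with their standard errors (horizontal axes) for every probe set of Trpv6, Atp2b1, Vdr, Cyp24a1 and Ctps (rows) in 4 comparisons. All points come from the fit over all probe sets, and filled points have an adjusted p under 0.05 in that fit. Filled points lie right of 0 for Vdr and Atp2b1 in KO minus WT and left of 0 for Atp2b1 in TNBS minus untreated.

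Genes around these roles were taken from lists, and all-gene medians of the differences were 0 in the comparisons below. Of 17 other calcium transport genes 16 were measured, 1 of them at the floor on all arrays. Between KO and WT with TNBS, 4 of 16 were called higher and 0 lower, with a list median of -0.001, where 3.73% of all genes were higher and 6.72% lower. They were Cldn2 and Cldn12, claudins of the paracellular calcium route, Stim1, the calcium sensor of the endoplasmic reticulum, and Mcu, the mitochondrial calcium uniporter. Cldn2 averaged 10.84 ± 0.10 (SD, n = 7) in KO with TNBS and 10.33 ± 0.23 (SD, n = 6) in WT with TNBS, a difference of 0.52 (SE 0.10, adjusted p = 0.0021). Cldn12 was higher in KO by 0.21 with TNBS (adjusted p = 0.0032) and by 0.25 without (adjusted p = 0.0069), the only gene of the list called without TNBS, where the median was 0.03 and 2.92% of all genes were called higher.

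With TNBS, 3 of the 16 fell in KO and 3 in WT and 0 rose in either, with medians of -0.06 in KO and -0.02 in WT, where 4.47% of all genes fell in KO and 6.27% in WT. Cldn2 was called in both, falling by 0.36 in KO and by 0.65 in WT. The others in KO were Slc8b1, the mitochondrial sodium and calcium exchanger, and Atp2b3, another plasma membrane pump, which averaged 2.21 with TNBS and 2.57 without, near the floor. Stim1 and Mcu were the others in WT, and without WT replicate 3 the Mcu call was lost (adjusted p = 0.123) and Slc8b1 was called (adjusted p = 0.0097). For the difference of TNBS effects 0 were called by limma, and 3 had an unadjusted p under 0.05.

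Of 12 genes of vitamin D metabolism and receptor partners 11 were measured, 2 of them at the floor on all arrays. Cubn, which takes up the vitamin D carrier in kidney, was called higher in untreated KO than in untreated WT, at 5.83 ± 0.88 and 4.23 ± 0.78 (SD, n = 5 each), a difference of 1.60 (SE 0.40, adjusted p = 0.0275). Ncoa1, a nuclear receptor coactivator, was higher in KO with TNBS by 0.20 (adjusted p = 0.0279), and Med1, a Mediator subunit that nuclear receptors bind, fell with TNBS in WT by 0.16 (adjusted p = 0.0126). For TNBS in KO 0 were called by limma and 0 had an unadjusted p under 0.05. List medians were 0.00 without TNBS between genotypes, 0.08 with it, and 0.00 for TNBS in either genotype. These single calls stand beside 2.92% of all genes called higher in untreated KO, 3.73% higher in KO with TNBS and 6.27% lower with TNBS in WT. The Cubn and Med1 calls held without WT replicate 3, and Ncoa1 was also called lower with TNBS in WT (adjusted p = 0.0133).

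Other vitamin D targets were measured for 7 of 8 genes. Abcb1a, a drug efflux pump, was higher in untreated KO than in untreated WT by 0.49 (SE 0.10, adjusted p = 0.0066), the only 1 of 7 called there, with a list median of 0.14, where 2.92% of all genes were called higher. Slc30a10, a manganese exporter and a vitamin D target in human intestinal cells, averaged 6.92 ± 0.49 (SD, n = 7) in KO with TNBS and 5.70 ± 0.56 (SD, n = 6) in WT with TNBS. Without TNBS it averaged 7.53 ± 0.31 in KO and 7.74 ± 0.20 in WT (SD, n = 5 each). The TNBS difference was -0.60 in KO (adjusted p = 0.149), and in WT the gene fell by 2.04 (SE 0.26, adjusted p = 2.3e-05). Its difference of TNBS effects, KO minus WT, was 1.43 (SE 0.36, adjusted p = 0.0432), where 0.621% of all genes were called higher. This difference was 1.39 without WT replicate 3 and no longer passed (adjusted p = 0.0635). S100g in the same WT samples was higher with TNBS than without. Slc34a2, a phosphate carrier, also fell with TNBS in WT, by 1.33 (adjusted p = 0.0141), which made 2 of 7 lower in WT, where 6.27% of all genes were. In KO, 1 of 7 fell with TNBS, Cyp3a11, where 4.47% of all genes did. It was at the floor on the TNBS arrays of both genotypes and averaged 5.03 ± 1.77 in untreated KO and 3.31 ± 2.43 in untreated WT (SD, n = 5 each). Small intestine markers moved with it: 5 of 16 fell with TNBS in KO (median -0.67) and 1 of 16 in WT (median -0.60), and their part in the Cyp3a11 difference was not tested.

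The pyrimidine and CTP list, 26 genes all measured, had 0 called between KO and WT with TNBS, where 5 had an unadjusted p under 0.05 and 3.73% of all genes were called higher and 6.72% lower. Without TNBS, 1 of 26 was called between genotypes, Cmpk2, a mitochondrial nucleotide kinase induced by interferon, lower in KO at 7.17 ± 0.56 than in WT at 8.89 ± 1.00 (SD, n = 5 each, adjusted p = 0.0189). In untreated KO 1.91% of all genes were called lower. With TNBS, 2 of 26 rose and 2 fell in KO, where 4.08% of all genes rose and 4.47% fell. In WT 4 rose and 1 fell, where 10.2% rose and 6.27% fell. Without WT replicate 3, 6 rose and 1 fell in WT, and Tk1, a thymidine kinase, was called higher in untreated KO (adjusted p = 0.0455) and for the difference of TNBS effects (-0.83, adjusted p = 0.0433). Upp1, uridine phosphorylase, rose in both, by 0.90 in KO and by 0.90 in WT, and Pcyt1a, which uses CTP to make phosphatidylcholine, fell in both, by 0.31 in KO and by 0.38 in WT. The list medians lay between -0.07 and 0.03.

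Of 15 other S100 genes 12 were measured. Between untreated KO and untreated WT 0 of 12 were called and 3 had an unadjusted p under 0.05, with a median of 0.07. With TNBS, 2 of 12 rose in KO and 4 in WT, and 0 fell, where 4.08% of all genes rose in KO and 10.2% in WT. Without WT replicate 3, 3 rose in WT, S100a8 no longer passing (adjusted p = 0.0882). S100a9, a calgranulin of neutrophils, rose by 4.14 in KO (SE 0.90, adjusted p = 0.0077) and by 4.11 in WT (SE 0.93, adjusted p = 0.0047). It averaged 8.90 ± 1.48 (SD, n = 6) in WT with TNBS and 4.79 ± 1.35 (SD, n = 5) in untreated WT. Unlike S100g, it stood low in both untreated genotypes. Squamous epithelium markers rose beside these genes, 2 of 8 with TNBS in KO (median 2.25) and 3 of 8 in WT (median 2.21; 1 of 8 without WT replicate 3), and their list mean spanned 4.80 to 8.55 in KO with TNBS and 3.36 to 6.72 in untreated KO. In WT it spanned 5.11 to 7.48 with TNBS and 3.05 to 5.21 without. Their part in the S100 differences was not tested.

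Genes whose values over the 23 arrays were most like S100g and Ctps2 were sought among 9097 genes brighter than the median gene. After Ctps2, S100g correlated most with Huwe1 (r = 0.88), Ccdc91 (0.82), Glo1 (0.80) and Pip4p1 (0.80). The most opposed were Kbtbd8 (-0.82), Zfp326 (-0.81), Nfe2l1 (-0.80), Slbp (-0.80) and Fam199x (-0.79). For Ctps2 they were Huwe1 (0.87), Acot9 (0.85), Serbp1 (0.83) and Glo1 (0.82) after S100g, with Zfp326 (-0.85), Prcc (-0.84), G3bp2 (-0.84), Paip1 (-0.83) and Fam199x (-0.83) at the other end. Over the 18 arrays without untreated WT these values changed. With S100g they lay between 0.10 (Huwe1) and 0.39 (Ccdc91) for the 4 most alike, and between -0.48 (Kbtbd8) and 0.47 (Nfe2l1) for the 5 most opposed. With Ctps2 they were 0.55 for Serbp1 and 0.45 for Acot9 but -0.12 for Huwe1 and -0.24 for Glo1, and lay between -0.42 (Paip1) and 0.03 (Zfp326) for the 5 most opposed. Vdr, Atp2b1 and Ctps were above the median gene and were not in either group of 5, while Trpv6 and Cyp24a1 were below the median gene. Over all 23 arrays S100g correlated with Vdr by 0.43, with Atp2b1 by -0.05 and with Ctps by -0.02. Over the 18 arrays without untreated WT these values were 0.78, 0.77 and -0.61. With group means subtracted on the 23 arrays they were 0.33, 0.35 and -0.19. For Ctps2 the 18-array values were -0.41 with Vdr, -0.45 with Atp2b1 and 0.45 with Ctps.

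Markers of other tissue differed between samples, which matters for S100g because its message is abundant in the upper small intestine. Apoa1, an apolipoprotein of small intestine enterocytes, read at most 2.86 on all TNBS arrays. Without TNBS it read 9.13, 9.69, 8.36, 8.87 and 3.20 in KO, against 2.60, 2.30, 2.23, 6.60 and 10.39 in WT. Untreated KO replicates 1 to 4 were high in both Apoa1 and S100g, and untreated WT replicates 1 to 3 were low in both. KO replicate 5 combined a low Apoa1 of 3.20 with an S100g of 12.19, and WT replicate 5 an Apoa1 of 10.39 with the low S100g of 7.80. The TNBS arrays had high S100g with Apoa1 near the floor. Apoa1 was chosen after values were seen. Some of the other small intestine markers moved like it. Apoa4 averaged 7.81 in KO and 4.84 in WT without TNBS, and 2.29 in KO and 2.28 in WT with it. Apoc3 averaged 7.08 in KO and 4.34 in WT without TNBS, and 2.27 and 2.35 with it. Fabp1 averaged 8.96 in KO and 7.18 in WT without TNBS, and 3.47 and 4.08 with it. Others were unlike it. Group means of Fabp2 ran from 13.41 to 13.59 and those of Slc5a1 from 10.97 to 11.19. Rbp2 averaged 10.98 in KO and 10.49 in WT with TNBS, and 11.33 in KO and 10.36 in WT without. The mean of the 16 small intestine markers spanned 5.41 to 7.91 in untreated KO and 5.25 to 7.97 in untreated WT. Of the 16, 1 was called higher in untreated KO, Rbp2 (0.96, limma adjusted p = 0.0254), where 2.92% of all genes were. With this mean in the fit, S100g differed by 4.35 and Ctps2 by 3.14 between untreated KO and WT. With the mean of the posterior Hox genes in the fit they differed by 4.56 and 3.21. The part of small intestine tissue in the S100g and Ctps2 differences was not tested.

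**Figure D5:**
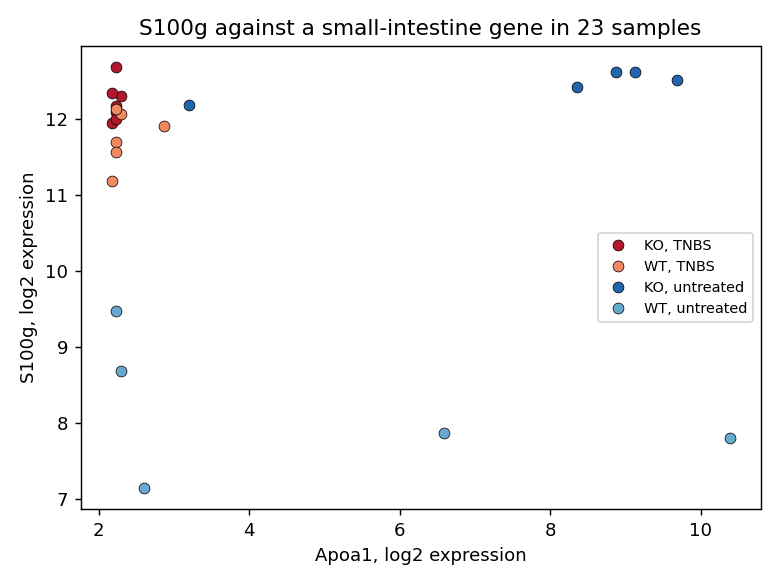
S100g (vertical axis) against Apoa1, a gene of small intestine enterocytes (horizontal axis), both in log2 expression, in 23 colon samples coloured by group. The 5 untreated WT samples are low in S100g, at 9.48 or less, at Apoa1 values from 2.23 to 10.39.

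Skeletal muscle markers differed between the genotypes in untreated colon. Their summed linear signal spanned 715 to 3756 in untreated KO and 72.6 to 372 in untreated WT, without overlap. Of the 8, 2 were called higher, Tnnt3 and Acta1 (without WT replicate 3, Acta1 alone), where 2.92% of all genes were. With TNBS the sum spanned 566 to 5826 in KO and 97.4 to 2974 in WT, which overlap. Limma called 0 of 8 there, 5 having an unadjusted p under 0.05, where 3.73% of all genes were called higher and 6.72% lower. With this list's mean in the fit, S100g differed by 4.43 and Ctps2 by 3.14 between untreated KO and WT. Of 13 colon epithelium markers, Slc26a3 and Car4 were called higher in untreated KO (0.21 and 0.29), where 2.92% of all genes were. Neither marker was called without WT replicate 3 (adjusted p = 0.0801 and 0.0798). Vdr was called in the same comparison, at 0.37, and came to 0.27 with the mean of these markers in the fit (limma adjusted p = 0.0389). The part of colon epithelium in the Vdr difference was not tested. With TNBS, 4 of these 13 fell in KO and 2 in WT, alongside the fall of Atp2b1, where 4.47% and 6.27% of all genes fell. Of 8 leukocyte markers, 5 rose in KO and 7 in WT, where 4.08% and 10.2% of all genes rose. Xist read 11.95 to 12.16 in untreated KO and 12.24 to 12.29 in untreated WT, without overlap, and 11.78 to 12.36 on the TNBS arrays. Limma did not call it between untreated KO and WT, and the share of all genes without overlap there was not counted. Eif2s3y, Kdm5d and Uty were within 0.01 of the floor on all arrays.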

How the data were processed

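The authors deposited log2 expression values of 45101 probe sets on 23 arrays. Per the submitters' processing notes, RMA and GCRMA were named, and the sources used here do not state which of them made the values. Values ran from 2.17 to 15.98, with 27.9% at the lowest, so changes of dim genes are understated. The number of arrays limits the precision.

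Probe sets with a single gene name (34958) were used for gene values, and each of 18194 genes was represented by its brightest probe set. Gene IDs of 34754 probe sets matched the assembly GRCm38.p6, used for symbols and neighbours. Group means were estimated over the 23 arrays in limma with lmFit and eBayes, and comparisons tested with Benjamini-Hochberg adjustment over all genes and a threshold of 0.05. Other probe sets of the 7 genes were tested in a fit over all probe sets. The procedure was tested on simulated data.

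The genes and lists were chosen with earlier results of these data known. Named are the 7 genes, up to 4 of a list by smallest p in a comparison, neighbours within 1 Mb, and the 5 most and least correlated genes. G530011O06Rik, Pdzd11 and Apoa1 and the promoter letters were chosen after values or sequences were seen. Alternatives were other limma options, groups, filters, summaries and scalings, the replicate block, marker means as covariates and leaving out each array. R 4.3.3, limma 3.58.1, version 1.17.8 of data.table, Python 3.11.15 and matplotlib 3.10.9 were used.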

Additional observations from a re-analysis of the deposited data

Results flagged for a closer look

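In 28 sets of 1 gene in 1 group, 2 arrays lay far from the rest of their group. The Cyp24a1 sets, at or near the floor, were too narrow to be flagged. Among the other sets chance alone flags about 1 in 20. Atp2b1 read 12.16 in untreated KO replicate 4, against 11.79 to 11.89 in the other 4, and its TNBS call in KO was lost without that array (adjusted p = 0.0688). Trpv6 read 7.43 in KO replicate 4 with TNBS, against 4.64 to 5.84 in the other 6. The TNBS effects of the genotypes differed, KO minus WT, by 1.43 for Slc30a10 (limma adjusted p = 0.0432, and 0.0635 without untreated WT replicate 3) and by -1.16 for Txlng (adjusted p = 0.000124).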

How the results depend on the processing

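Over 38 alternatives, S100g kept a difference of 4.02 to 4.61 between untreated KO and WT and of 3.31 to 3.91 for TNBS in WT. The numbers of the samples showed no sign of pairing. Deviations of same-numbered samples correlated by a median of 0.03 and from -0.46 to 0.43. Those of samples with different numbers correlated by a median of 0.002 and from -0.56 to 0.54. A pairing is not excluded by these values. With the replicate block, limma called 0 of the 5 followers for TNBS in WT, against 1 without it, as Atp2b1 gave -0.35 with an adjusted p of 0.0554, and the counts of the other comparisons did not change. The causes of the changes below were not tested.

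For TNBS in KO, 0 of 5 were called with the compared groups alone or with the small intestine, squamous or colon epithelium mean in the fit, and 2 (Atp2b1 and Vdr) with array weights or without genes under the median gene. Leaving out arrays gave 0 (without KO replicate 4) to 2 (without KO replicate 5 with TNBS). For TNBS in WT, 0 were also called with any of these 3 means, and 0 to 1 when arrays were left out (0 without WT replicate 4). For KO against WT with TNBS, 1 (Vdr) was called with array weights, without genes under the median, or with the squamous or posterior Hox mean, and 2 with the mean of all probe sets. Leaving out arrays gave 0 to 1 (1 without KO replicate 3, WT replicate 2 or WT replicate 4, all with TNBS). For untreated KO against WT, 0 were called with the skeletal muscle mean.

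S100g for TNBS in KO came to 0.10 with the squamous mean and 0.066 with the colon epithelium mean, against -0.25. With the mean of all probe sets Ctps2 gave -0.22 for TNBS in KO, 1.32 for TNBS in WT and 1.46 for untreated KO minus WT. For TNBS in KO it gave 0.14 with the small intestine mean and -0.12 with the squamous mean. Signs turned only for small differences that limma did not call. Trpv6 for untreated KO minus WT ran from -0.62 to 0.00011 when arrays were left out. The difference of TNBS effects of Atp2b1 became 0.012 with arrays centred, 0.0049 with the small intestine mean and 0.015 with the colon epithelium mean, and ran from -0.056 to 0.040 when arrays were left out. Vdr for TNBS in WT became 0.077 with the colon epithelium mean. Ctps for TNBS in KO became -0.038 with the squamous mean and -0.0078 with the colon epithelium mean, and ran from -0.0055 to 0.19 when arrays were left out. Ctps for untreated KO minus WT became 0.10 with the skeletal muscle mean. The skeletal muscle and posterior Hox means were chosen after seeing the data.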
